A study of Homo sapiens with 7 samples.

Results

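On the ExonHit Human Splice Array, probe sets of a gene are grouped into events and carry letters, and an event was used here where its probe sets C, D and E were all present. The event score is the log2 value of E minus the mean of the log2 values of C and D on the same array, so a higher score means more signal on E relative to the other 2 probe sets. Of 2108940 probe sets in the table, 682383 formed 227461 complete events, which took in 85.5% of the 266061 E probe sets. These events belong to 18534 gene identifiers, with a median of 9 events and at most 168 per identifier, and 199555 events (87.7%) could be given a gene symbol. The median of all probe set means in the table was 2.9503, and that value rounded to 2 decimals served as the brightness limit. At least 1 of the 3 probe sets had a mean above it in 157662 events, and all 3 did in 29020. What each letter stands for is not given in the sources used here, so the probe sets are called by their letters.

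Messenger RNA is made by joining exons, and a splice array carries probes that lie across the joins as well as inside exons, so that different joins of 1 gene can be read apart. Camptothecin (CPT) traps topoisomerase I on DNA after the enzyme has cut a strand, which blocks transcription and replication. The series asked how that affects splicing across the genome. A score built from 3 probe sets of 1 event moves when E changes, when C and D change, or both, so each result is given with the 3 probe sets apart.

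All 7 arrays hold total RNA of HCT116, a colon carcinoma cell line. Cells treated with 10 μM CPT were sampled at 15 and 20 h (CPT late, n = 2) and at 1, 2 and 4 h (CPT early, n = 3). Cells given the solvent alone, 0.1% DMSO, were sampled at 4 and 20 h (DMSO, n = 2). No time is repeated within a treatment and the labels name no separate cultures, so p-values measure differences against the spread between arrays of different times, which may be technical. Of the 12 colon epithelium markers, a median of 74.3% of probe sets outside C, D and E lay above the brightness limit, against 60.0% over all genes, 48.7% for leukocyte, 35.5% for endothelium and 26.7% for fibroblast markers. The bulk RNA cannot tell fewer cells of a type from less RNA per cell.

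E was the dimmest of the 3 probe sets. Its median over events was 2.09, against 2.74 for C and 2.69 for D, and 30.5% of E, 46.1% of C and 45.4% of D probe sets lay above the limit. The median score was accordingly below 0 on every array. It was -0.50 at 4 h and -0.47 at 20 h of DMSO, and -0.48, -0.49, -0.47, -0.31 and -0.31 at 1, 2, 4, 15 and 20 h of CPT. Among events with at least 1 probe set above the limit the same medians were -1.08, -1.06, -1.07, -1.07, -1.06, -0.71 and -0.66. Both late arrays thus stood above the other 5 in both sets. Across events, scores correlated at 0.931 to 0.944 between 2 arrays that were not late, at 0.808 to 0.884 between a late and another array, and at 0.916 between the late arrays, a description over events that share the arrays' normalization.

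In CPT late against DMSO, 17769 events had a higher score (7.81% of those tested) and 3279 a lower score (1.44%), by limma with Benjamini-Hochberg adjustment over all events. The groups did not overlap, whatever the p, in 33.9% of events upward and 16.3% downward. Over all events the median difference was 0.18, and it was 0.30 where at least 1 probe set lay above the limit. With each array centred on its median score the counts were 12958 higher and 4346 lower, so that 74.9% of calls were higher in place of 84.4%. Leaving out the 4 h DMSO array gave 5501 higher and 1145 lower, and leaving out the 20 h CPT array gave 6871 higher and 1202 lower.

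Most of the higher scores came with less signal on C and D and little change on E. Among the 17769 events the median difference was -1.94 for the mean of C and D and 0.28 for E, and E changed by less than 0.5 in 10768 (60.6%). In 14837 (83.5%) the mean of C and D was lower by more than 1. The mean of E lay above the brightness limit in 4495 of the 17769 (25.3%). In the rest E was dim, so a fall of E could hardly be seen. Taken alone, in a fit over all probe sets of the table, 5900 E probe sets of complete events were higher (2.59%) and 2813 lower (1.24%). E was called higher in 1850 of the events with a higher score (0.813% of all events), and lower in 8 of them. Lower scores had another make-up: among the 3279 events the median difference was -1.85 for E and 0.42 for C and D, and E was called lower in 1852 (0.814% of all events). Leaving out the 4 h DMSO array gave 323 higher scores with E higher and 742 lower scores with E lower, and leaving out the 20 h CPT array gave 612 and 839.

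**Figure D1:**
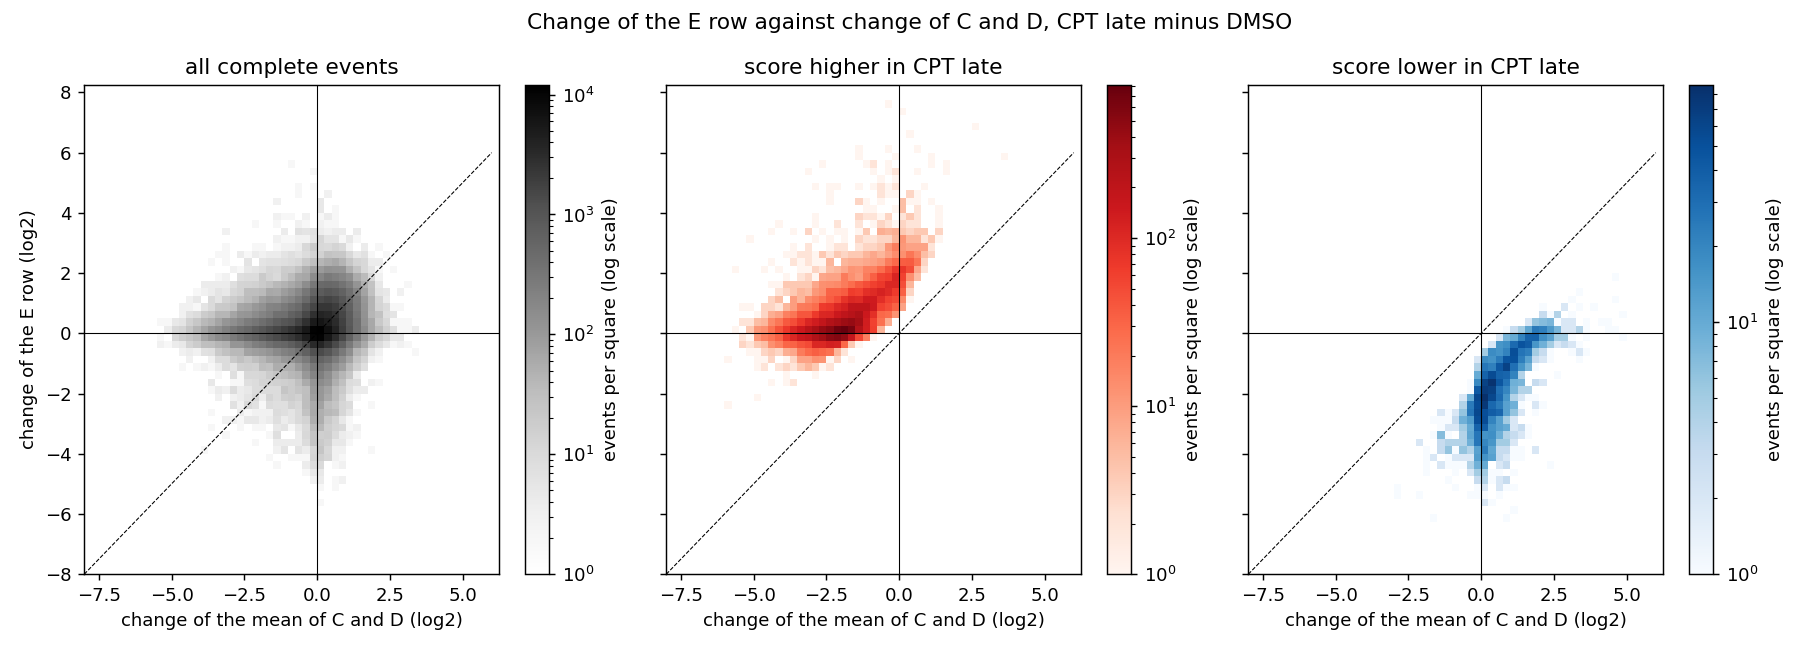
Change of the E probe set (vertical axis, log2, CPT late minus DMSO) against change of the mean of C and D (horizontal axis, log2) for all complete events, for the 17769 with a higher score and for the 3279 with a lower score; the shade gives events per square of the grid on a log scale and the dashed line marks an unchanged score. Higher scores spread mainly to the left at little change of E, and lower scores mainly downward at little change of C and D.

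**Figure D2:**
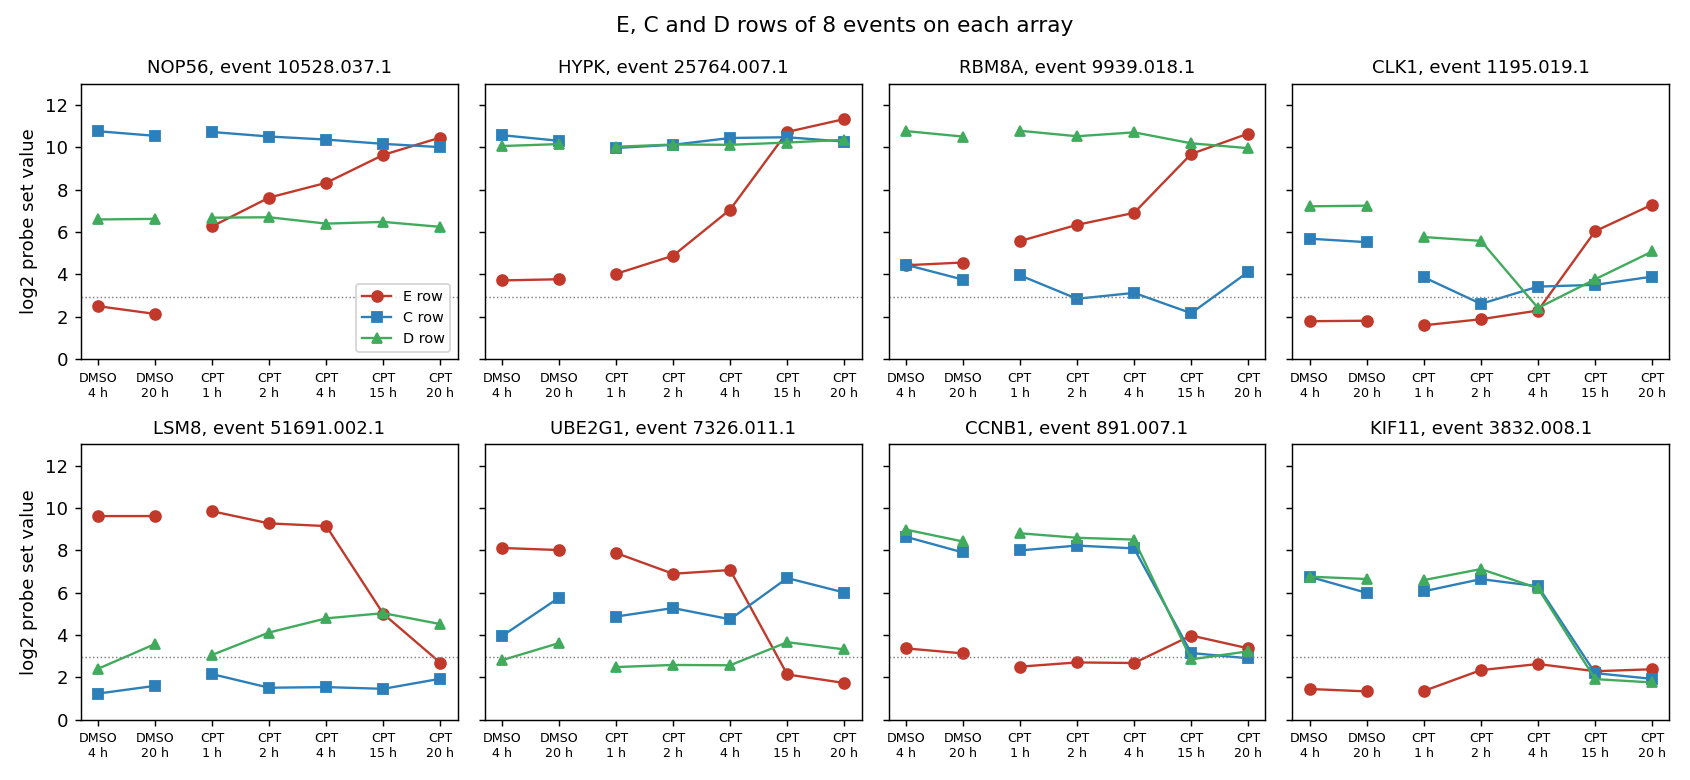
Log2 values of E (circles), C (squares) and D (triangles) on each array for 8 events, with DMSO at the left and CPT by time; the dotted line is the brightness limit. In NOP56, HYPK, RBM8A and CLK1 the E line climbs, and in LSM8 and UBE2G1 it drops at 15 h. In CCNB1 and KIF11 C and D drop at 15 h while E moves far less.

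NOP56, a core protein of the box C/D small nucleolar ribonucleoprotein, showed a large change of E beside steady C and D. E (event 10528.037.1) read 2.50 and 2.13 at 4 and 20 h of DMSO, and 6.26, 7.62, 8.32, 9.64 and 10.46 at 1, 2, 4, 15 and 20 h of CPT. Every CPT array lay above both DMSO arrays, in the order of time. C stayed between 10.00 and 10.75 and D between 6.24 and 6.69 on all 7 arrays. The score was 8.14 higher in CPT late than in DMSO (SE 0.56, adjusted p = 1.2e-05, limma) and 5.15 higher in CPT early (SE 0.52, adjusted p = 0.0085, limma). The late call was kept in 15 of 15 alternatives, the early call in 9 of 15, with an adjusted p of up to 0.80 (limma).

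HYPK, a chaperone-like partner of the N-terminal acetyltransferase NatA, had the same form with a later start. Its E probe set (event 25764.007.1) read 3.71 and 3.77 in DMSO and 4.02, 4.88, 7.06, 10.72 and 11.33 along the CPT times, whereas C lay between 9.96 and 10.57 and D between 10.02 and 10.35. The score difference of CPT late from DMSO was 7.23 (SE 0.59, adjusted p = 2.4e-05, limma). RBM8A, the Y14 protein of the exon junction complex, had E at 4.43 and 4.56 in DMSO and 5.57, 6.33, 6.90, 9.68 and 10.64 in CPT (event 9939.018.1). Its D probe set differed by -0.56 and its C probe set by -0.96 between CPT late and DMSO, and its score by 6.43 (SE 0.51, adjusted p = 2.4e-05, limma). In all 3 genes the level read from other probe sets moved less: by 1.13 in NOP56, 0.26 in HYPK and -0.09 in RBM8A, where the median over all genes was 0.33.

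CLK1, a kinase that phosphorylates SR splicing proteins, had E higher and both C and D lower in CPT late than in DMSO. The E probe set (event 1195.019.1) read 1.79 and 1.81 in DMSO and 1.59, 1.88, 2.29, 6.03 and 7.29 in CPT. C read 5.68 and 5.52 in DMSO and 3.86, 2.60, 3.42, 3.50 and 3.89 in CPT. D read 7.21 and 7.24 in DMSO and 5.76, 5.58, 2.41, 3.77 and 5.08 in CPT. Both thus lay below DMSO from 1 h on, before E was higher, and D rose again after 4 h. In CPT early against DMSO neither C nor D passed (adjusted p = 0.24 and 0.58, limma), so this order rests on single arrays. C differed by -1.90 and D by -2.80 in CPT late against DMSO (adjusted p = 0.039 and 0.042, limma), and the score was 7.22 higher (SE 0.67, adjusted p = 5.2e-05, limma). CLK4, a kinase of the same family, had a score 6.71 higher with E higher by 4.40. On its arrays E stood at 4.33 at 4 h, 3.91 at 15 h and 8.14 at 20 h of CPT, against 1.59 and 1.65 in DMSO, so the 2 late arrays lay far apart.

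The 10 largest increases, 1 event per gene, ran between 7.23 and 8.45. CCDC77 led (8.45), followed by NOP56 (8.14), SLC38A2, an amino acid transporter (8.12), EIF2S2, the beta subunit of translation factor eIF2 (8.10), and CNOT2 of the CCR4-NOT deadenylase (7.73). LYAR, a nucleolar protein (7.72), TPR of the nuclear pore basket (7.70), IWS1, a transcription elongation factor (7.59), PSMD12, a proteasome subunit (7.41), and HYPK (7.23) completed them. E was called higher in 10 of 10, and C and D were both called lower in 7. The gene level was lower by more than 1 in 8 of them. The score at 20 h exceeded that at 15 h in all 10, against 62.1% of the events with a higher score and 51.3% of all. Scores of 8 stood in the order of 1, 2 and 4 h, against 21.1% and 16.1%. The 10 were chosen on the difference between the late and DMSO arrays, with the spread and the brightness taken over all 7 arrays.

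CCDC77 had E at 1.62 and 1.59 in DMSO and 3.16, 4.37, 5.18, 6.85 and 7.12 in CPT, with D differing by -4.51 in CPT late and C by -1.63, which did not pass. EIF2S2 had E at 1.36 and 1.70 in DMSO and 1.52, 2.60, 3.16, 6.20 and 7.97 in CPT. PSMD12 had E at 2.03 and 1.74 in DMSO and 3.06, 4.81, 5.52, 7.27 and 8.53 in CPT. These 3 E probe sets were near the dim end in DMSO, and 2 of them were above both DMSO arrays from 1 h on. In TPR 51 of 56 events had a higher score, beside a gene level difference of -3.11. LYAR had 7 of 8 events higher at -1.36, CNOT2 13 of 26 at -3.04 and PSMD12 4 of 16 at -1.20. In CNOT2 6 events were lower with E called lower, and 1 was higher with E called higher. Over all events 7.81% had a higher score, and 32.0% did where the gene level was lower by more than 1. In that class lower scores with E lower made up 3.04% and higher scores with E higher 1.02%.

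**Figure D3:**
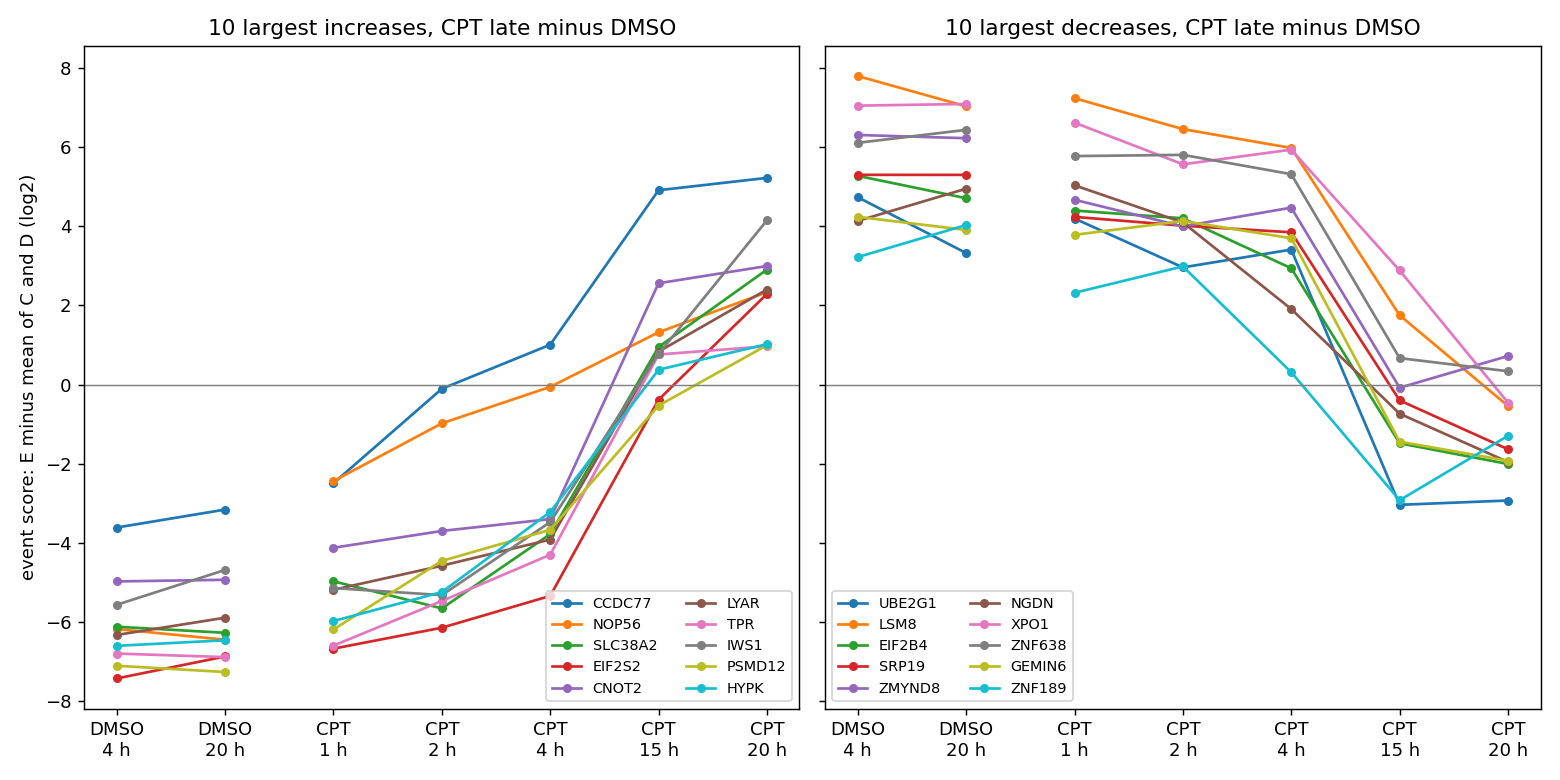
Event score (vertical axis, log2) on each array for the 10 largest increases (left) and 10 largest decreases (right) of CPT late against DMSO, 1 event per gene, with DMSO at the left and CPT by time. The mean of the late arrays lies above that of DMSO by 7.23 to 8.45 in the increases, and the differences of the decreases run between -7.01 and -5.73.

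The 10 largest decreases ran between -7.01 and -5.73, and E was called lower in all 10 while C and D were both called higher in 0. UBE2G1, a ubiquitin-conjugating enzyme, had E at 8.11 and 8.01 in DMSO, 7.88, 6.89 and 7.07 at 1, 2 and 4 h, and 2.14 and 1.74 at 15 and 20 h of CPT. Its score differed by -7.01 (SE 0.57, adjusted p = 2.4e-05, limma). LSM8, a subunit of the ring that binds U6 small nuclear RNA, had E at 9.61 and 9.62 in DMSO, between 9.14 and 9.85 in CPT early, and 5.00 and 2.69 at 15 and 20 h. Its score differed by -6.81 (SE 0.68, adjusted p = 6.9e-05, limma). In both genes the late arrays lay well below the other 5.

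Of the rest, EIF2B4, a subunit of the exchange factor of eIF2, had a difference of -6.73, SRP19 of the signal recognition particle -6.32 and the chromatin reader ZMYND8 -5.94. NGDN had -5.89, the nuclear export receptor XPO1 -5.85, ZNF638 -5.77, GEMIN6 of the SMN complex -5.76 and ZNF189 -5.73. EIF2B4 stood apart in that its C probe set was higher by 4.85 beside E at -4.31. XPO1 had E at 5.59 at 15 h and 2.52 at 20 h, against 9.12 and 9.10 in DMSO. The gene level was lower by more than 1 in 7 of the 10.

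E higher together with C and D both lower, each past the threshold in its own fit, held in 163 of 227461 events. These belong to 150 identifiers and had a median score difference of 4.55. The opposite, E lower with C and D both higher, held in 3. Over all events, C and D were both called lower in 7362 and both higher in 714, and E was called higher in 5900 and lower in 2813. The 163 and the 3 thus start from unlike numbers, and an excess over what these counts alone give was not tested. Beyond the genes above, the 163 included PNN (7.21), MRPS23 (7.13), BRIX1 (6.83), HNRNPDL (5.86) and DDX17 (5.84), named after their values were seen. Of the 163, 50 (30.7%) had scores in the order of 1, 2 and 4 h, against 16.1% of all events and 27.1% of the 1850 with E higher. The late arrays were not used to set that order. These events were, however, chosen on a contrast with the same DMSO arrays, with the spread taken over all 7 arrays.

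The gene level, read from probe sets other than C, D and E, moved with the counts. Where it was lower by more than 1 in CPT late, 32.0% of 35729 events had a higher score. Where it lay within 0.5, 2.74% of 102675 events did, and where it was higher by more than 1, 1.64% of 7253. The share with E also higher was 1.02%, 0.770% and 1.38% in these classes. Lower scores with E lower made up 3.04%, 0.361% and 0.097%. Whether gene level changes account for the score changes was not tested.

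**Figure D4:**
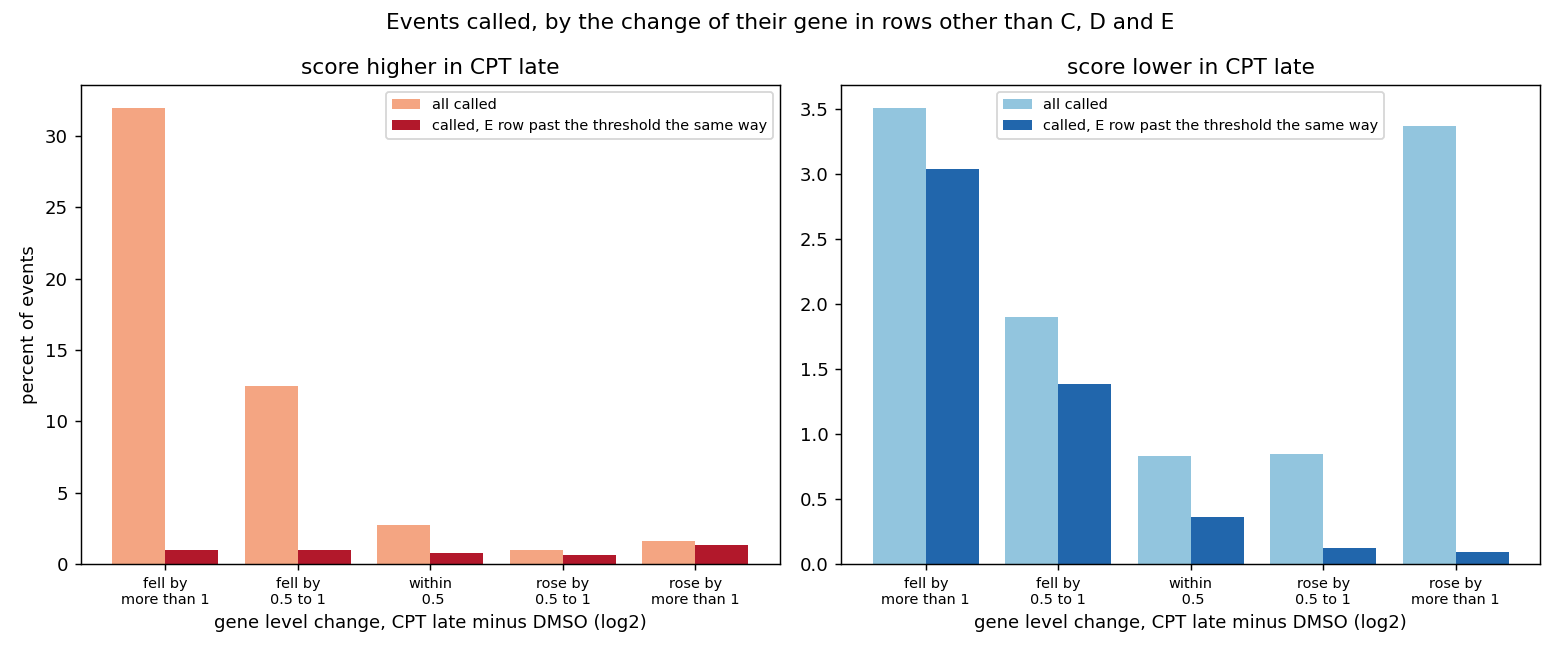
Percent of events (vertical axis) with a higher score (left) or a lower score (right) in CPT late against DMSO, by the change of the gene level in probe sets other than C, D and E; pale bars are all called events and dark bars those with E past the threshold the same way. The pale bar for higher scores is 32.0% where the gene level fell by more than 1 and 2.74% where it lay within 0.5.

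The brightness of the 3 probe sets went with the counts too. Events with C and D above the limit and E below had a higher score in 24.6% of 32157, against 1.42% of the 69799 events with all 3 below. Events with E alone above had a lower score in 9.97% of 10818. Events whose brightest probe set lay up to 0.1 above the limit had 3.36% higher and 1.05% lower, and those up to 0.1 below it 3.21% and 0.809%.

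CCNB1, cyclin B1, had C at 3.15 and 2.90 and D at 2.85 and 3.23 at 15 and 20 h of CPT, against C at 8.64 and 7.90 and D at 8.98 and 8.42 in DMSO. E read 3.98 and 3.37 in CPT late and 3.37 and 3.13 in DMSO, and its difference of 0.42 did not pass (adjusted p = 0.71, limma). The score was 5.87 higher (SE 0.45, adjusted p = 2.0e-05, limma), and 8 of 8 events of the gene had a higher score. The largest events of the kinesin KIF11 (5.52), NDC80 of the kinetochore (5.46) and the centromere kinesin CENPE (5.00) had E differences of 0.94, 0.44 and 0.08 that did not pass. Other events of the same genes differed from these: one of NDC80 was lower by 3.37 with E called lower, and one of CENPE was higher by 4.49 with E called higher. In the mitosis list 254 of 536 events were higher (47.4%, against 7.81% of all events) and 23 lower (4.29%, against 1.44%). E was also higher in 8 (1.49%, against 0.813%) and lower in 20 (3.73%, against 0.814%). The lower ones included the spindle kinase AURKA with 4 events, the checkpoint kinase BUB1 with 2 and the kinesin KIF23 with 2, of which the largest differed by -4.31. The median score difference of the list was 1.52, against 0.18 over all events, beside a median gene level difference of -1.88, against 0.33 over all genes.

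The lists of splicing genes together held 1879 events of 123 genes, of which 335 (17.8%) had a higher and 67 (3.57%) a lower score, beside 7.81% and 1.44% of all events. E was higher in 35 (1.86%) and lower in 48 (2.55%), beside 0.813% and 0.814% of all events. At least 1 probe set lay above the brightness limit in 1767 of the 1879. Over all events of that kind 10.6% had a higher and 1.84% a lower score. With E called the same way these were 1.08% and 1.12%. Where the gene level lay within 0.5, 5.83% of 944 splicing events had a higher score, against 2.74% of all events in that class, and where it was lower by more than 1, 42.0% of 540, against 32.0%. These lists were written with results of these arrays known, so the shares are no independent evidence of their direction.

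SR proteins and their kinases had 63 of 308 events higher (20.5%, against 7.81% of all events) and 12 lower (3.90%, against 1.44%), with a median of 0.58, against 0.18. Higher scores with E higher numbered 7 (2.27%, against 0.813%), and lower scores with E lower 8 (2.60%, against 0.814%). Besides CLK1 and CLK4, SRRM1, an SR-related matrix protein, was higher by 4.26 with E higher by 1.97. The SR kinase SRPK2 was higher by 4.03 with E at 0.75, which did not pass (adjusted p = 0.16, limma), and another of its events was lower by 1.85 with E called lower. Scores with E called lower were found in the SR proteins SRSF3 (-3.75), SRSF5 (-2.86 in the larger of 2 events), SRSF7 (-1.57) and TRA2B (-2.35), in the kinase CLK3 (-2.42) and in SON (-2.32).

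Among hnRNP and other regulators 167 of 776 events were higher (21.5%, against 7.81% of all events) and 31 lower (3.99%, against 1.44%), with a median of 0.60. E was also higher in 7 (0.902%, near the 0.813% of all events) and lower in 26 (3.35%, against 0.814%). In 727 of the 776 at least 1 probe set lay above the brightness limit, and over all such events these shares were 1.08% and 1.12%. The largest lower scores with E called lower were those of RBM25 at -4.84 with E lower by 5.08, RBM5 at -4.38 with E lower by 4.63, and RBM10 at -3.84 with E lower by 3.72. Events of 1 gene differed in direction. RBM5 had 4 events lower with E lower, but its largest event was higher by 4.70 with E at 0.13, which did not pass. RBM6 had 1 lower with E lower, at -3.28, and its largest event was higher by 4.94 with E at 1.58, which did not pass. Second events given here beside a gene's largest were named after their values were seen.

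Core spliceosome and exon junction complex genes had 105 of 795 events higher (13.2%, against 7.81% of all events) and 24 lower (3.02%, against 1.44%), with a median of 0.38. E was also higher in 21 (2.64%, against 0.813%) and lower in 14 (1.76%, against 0.814%). PLRG1 of the Prp19 complex was higher by 5.09 with E higher by 3.93, and RNPS1, which binds the exon junction complex, by 4.92 with E higher by 2.08. In PLRG1 E read 4.30 and 6.69 at 15 and 20 h, against 1.40 and 1.72 in DMSO.

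**Figure D5:**
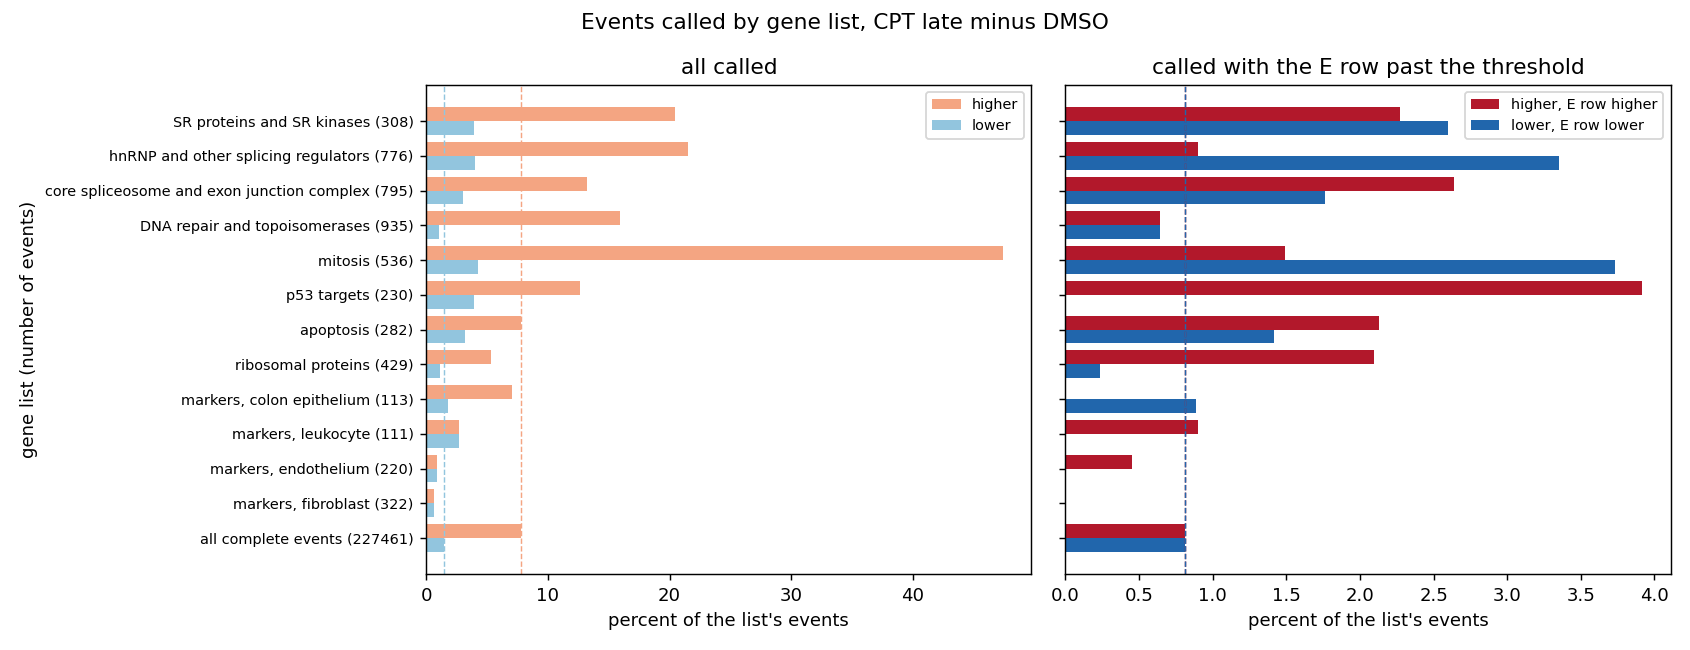
Percent of a list's events (horizontal axis) called in CPT late against DMSO, for all calls (left) and for calls with E past the threshold the same way (right), by gene list, with the number of events in brackets; dashed lines mark the share over all complete events. Mitosis has the longest bar at the left (47.4%), and p53 targets have 3.91% with E higher and 0 with E lower at the right.

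p53 target genes had 29 of 230 events higher (12.6%, against 7.81% of all events) and 9 lower (3.91%, against 1.44%), with a median of 0.19. E was also higher in 9 (3.91%, against 0.813%) and lower in 0. CCNG1, cyclin G1, was higher by 5.82, with E at 4.87 and 7.13 in CPT late, against 1.82 and 1.47 in DMSO. POLH, a translesion polymerase, was higher by 4.59 and the death receptor FAS by 4.45, each with E called higher. POLH had E at 3.68 and 5.65 in CPT late, against 2.65 and 2.45 in DMSO. The largest event of GADD45A, a growth arrest gene, stood at -4.28, with C and D higher by 4.34 and 4.28 and E at 0.03, beside a gene level higher by 3.63. Another of its events was higher by 3.56 with E called higher by 4.22.

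Apoptosis genes had 22 of 282 events higher (7.80%), which is the share of all events (7.81%), and 9 lower (3.19%, against 1.44%). Higher scores with E higher numbered 6 (2.13%, against 0.813%), and lower scores with E lower 4 (1.42%, against 0.814%). DIABLO, which antagonises inhibitors of apoptosis, was lower by 5.21 on the score scale, with E at 1.80 and 1.43 in CPT late, against 5.93 and 6.11 in DMSO. CYCS, cytochrome c, was higher by 3.79 with C and D steady. CFLAR, an inhibitor of caspase-8 activation, was higher by 3.21 with E at 1.23, which did not pass. DNA repair genes and topoisomerases had 149 of 935 events higher (15.9%, against 7.81% of all events) and 10 lower (1.07%, against 1.44%). E was also higher in 6 and lower in 6 (0.642% each, against 0.813% and 0.814%), so these shares and that of lower scores lay at or below those of all events. The checkpoint kinase CHEK1 (5.30), the mismatch repair protein MSH6 (5.20), TOP2A (4.68) and RAD50 (4.10) led, and E did not pass in these 4 events. Another event of TOP2A was higher by 4.64 with E called higher by 1.53, and another of RAD50 by 3.54 with E called higher by 1.89.

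Ribosomal protein genes had 23 of 429 events higher (5.36%) and 5 lower (1.17%), below the 7.81% and 1.44% of all events, with a median of 0.04. The E probe set was higher too in 9 (2.10%, against 0.813%) and lower too in 1 (0.233%, against 0.814%). In RPL30 E read 8.50 and 9.29 in CPT late, against 3.64 and 3.57 in DMSO, while C and D differed by -0.08 and -0.07, and the score was 5.36 higher. RPL9 (3.18), RPS18 (2.78) and RPS3 (2.54) were higher as well, each with E called higher. Genes with near-identical copies, such as ribosomal protein genes and CYCS, and HYPK, which is also read in a transcript joined to its neighbour, are uncertain because probe sequences were not used here.

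Without the 4 h DMSO array the lists had 23 higher events (SR proteins), 70 (hnRNP and other regulators), 40 (core spliceosome), 8 (apoptosis), 52 (DNA repair), 16 (p53 targets), 116 (mitosis) and 11 (ribosomal proteins). Without the 20 h CPT array these were 27, 78, 51, 8, 62, 14, 135 and 7. Without the 15 h CPT array apoptosis had 10, DNA repair 95 and ribosomal proteins 11, and without the 20 h DMSO array apoptosis had 12 and ribosomal proteins 14. Lower events in the same order of lists numbered 6, 11, 9, 5, 2, 4, 9 and 2 without the 4 h DMSO array and 2, 12, 10, 4, 4, 2, 11 and 1 without the 20 h CPT array. Each of these fits leaves 1 array in a group, and calls over all events were fewer in each of them too. These list counts therefore do not measure a loss particular to a list, and shares of lists and of all events were not compared under these settings.

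The 8 genes named whatever their values have 120 events. Each gene is given by its event with the smallest p in CPT late against DMSO, so the events were selected. Among them MDM2, the p53 ubiquitin ligase, was higher by 3.81 and TOP1, the target of CPT, by 2.43 (adjusted p = 0.0054, limma). In neither of these events did E change past the threshold, whereas another MDM2 event was higher by 1.52 with E called higher by 1.18. MYC (2.57), TDP1, which removes topoisomerase I from DNA ends (1.73), and CDKN1A (1.63) also passed. CASP2 at 1.76 (adjusted p = 0.073, limma) and FOS at -1.46 (adjusted p = 0.22, limma) did not. With only events of at least 1 probe set above the brightness limit tested, CASP2 passed (adjusted p = 0.047, limma). In the other 13 of its 14 alternatives it did not. Without the 4 h DMSO array the adjusted p by limma was 0.077 for TOP1 and 0.18 for MYC, and without the 20 h CPT array it was 0.12 for MYC. TDP1 (adjusted p = 0.047, limma) and CDKN1A (adjusted p = 0.048, limma) lost the call whichever of the 7 arrays was left out.

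Of 111 leukocyte marker events 3 were higher and 3 lower (2.70% each), of 220 endothelium events 2 and 2 (0.909% each) and of 322 fibroblast events 2 and 2 (0.621% each), against 7.81% and 1.44% of all events. The leukocyte share of lower scores was the only one of these 6 above that of all events. Colon epithelium had 8 higher (7.08%) and 2 lower (1.77%) of 113. Without the 4 h DMSO array, leukocyte and endothelium events had 0 calls in either direction and epithelium 1 in each. The summed gene level of the leukocyte list was 47.69 to 49.09 in CPT late, 40.78 to 44.31 in CPT early and 41.35 to 43.61 in DMSO. The endothelium sum was 40.90 to 41.95, 36.21 to 37.02 and 34.88 to 36.84 in the same groups, the fibroblast sum 41.29 to 43.05, 36.49 to 37.87 and 36.99 to 37.60, and the epithelium sum 64.84 to 65.47, 63.21 to 66.62 and 64.05 to 65.47. Per gene, the median level difference of CPT late from DMSO was 0.68 for leukocyte, 0.53 for endothelium, 0.43 for fibroblast and 0.01 for epithelium markers. Over all genes it was 0.33. The part of these markers in the results was not tested.

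CPT early against DMSO gave 1 higher event (0.00044%), the NOP56 event above, and 0 lower by limma with Benjamini-Hochberg adjustment, while 12174 events had an unadjusted p under 0.05. The groups did not overlap in 10.4% of events upward and 10.5% downward, and the median difference was -0.0037. The NOP56 call was lost without the 4 h DMSO array (adjusted p = 0.20), the 20 h DMSO array (0.13) or the 2 h CPT array (0.085), and also from E minus C alone (0.37), from E minus D alone (0.067) and by limma without a trend (0.80). The difference in these 6 stayed between 5.02 and 5.29. Without the 1 h CPT array 9 events were higher and 2 lower. The 5 next events by p did not pass: HDAC1 differed by -3.11, H2BC21 by 2.88, GNAL by -3.22, LUC7L3 by 2.97 and PRC1 by -2.10.

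CPT late against CPT early gave 20675 higher events (9.09%) and 3379 lower (1.49%), and the groups did not overlap in 28.3% of events upward and 11.2% downward. PPFIA1 (7.59), IWS1 (7.11), EIF2S2 (7.004), PAN2 of a deadenylase (6.80) and SLC38A2 (6.73) led the increases. CNOT2 (6.52), the ATP-binding cassette protein ABCF2 (6.39), CCNB1 (6.38), TPR (6.32) and BAZ1A (6.26) followed. ABCF2 had E at 8.23 and 8.83 in CPT late, against 2.12, 1.55 and 1.96 in CPT early, with the late values far above. UBE2G1 (-6.51), LSM8 (-5.95), EIF2B4 (-5.59), GEMIN6 (-5.55) and SPC25 of the kinetochore (-5.54) led the decreases, ahead of ARNT (-5.34), ATP2B1 (-5.29), SPOP (-5.26), DNAJC17 (-5.22) and ZNF638 (-5.13). Without the 20 h CPT array there were 7416 higher and 1200 lower, without the 2 h CPT array 13383 and 2207, and without the 15 h CPT array 13714 higher.

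At matched times there is 1 array a side and no test. Scores at 4 h were higher by more than 2 in CPT than in DMSO in 2558 events (1.12%) and lower by more than 2 in 1707 (0.75%). At 20 h this held in 15091 (6.63%) and 4000 (1.76%). Between the DMSO arrays, 20 h minus 4 h, 2217 events (0.975%) were higher and 1332 (0.586%) lower by that much, and between the late CPT arrays, 20 h minus 15 h, 2238 (0.984%) and 2117 (0.931%). By more than 4, the 20 h comparison had 1219 higher (0.536%) and 309 lower (0.136%), and the 4 h comparison 20 (0.00879%) and 12 (0.00528%). Between the DMSO arrays there were 8 (0.00352%) and 7 (0.00308%), and between the late CPT arrays 8 (0.00352%) and 11 (0.00484%).

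Another score of the same events, F minus the mean of B and T, uses none of the 3 probe sets. It could be formed in 222792 events. In CPT late against DMSO it was higher in 2726 (1.22%) and lower in 1641 (0.737%), in CPT early against DMSO 0 and 3 (0.00135%), and in CPT late against CPT early 2978 (1.34%) and 2013 (0.904%). For NOP56 that score differed by 1.23, for HYPK by -0.50, for RBM8A by -0.06 and for MDM2 by 2.20. Of the 10 largest increases 3 passed upward on it and 0 downward.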

How the data were processed

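The deposited table gives log2 values, a scale read from its range, for each probe set on 7 arrays. Per the submitters' processing notes, the tools were RMA, Partek 6.08 and R 2.11.1; what each did is not stated, and neither genome build nor probe sequences were used here. Gene symbols came from the platform annotation and the RefSeq table. Of 18534 identifiers 15581 were named.

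Scores were fitted with limma 3.58.1 in R 4.3.3 (7 arrays, 1 mean per group, 4 residual degrees of freedom, eBayes with the mean level of the 3 probe sets as trend) with Benjamini-Hochberg adjustment over 227461 events and a threshold of 0.05; the script was tested on simulated data. Single probe sets were fitted over all 2108940. The gene level is the median of probe sets other than C, D and E with a mean above the brightness limit, for genes with at least 3. The precision is limited by the 7 arrays. Comparisons with DMSO share their control arrays.

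Named were the 10 largest differences per direction and contrast past the threshold, with groups that did not overlap, at least 1 probe set mean above the limit and 1 event per gene; the 5 smallest p where fewer than 5 passed; up to 4 genes for each of 8 pathway and 4 marker lists; and 8 genes always. Each of the 8 genes is given by its event with the smallest p in CPT late against DMSO. The events, lists and rule were chosen with earlier results of these data known. Alternatives were filters, scores from C or D alone, centring, quantile re-normalization, other moderation and leaving out each array. Python 3.11.15, pandas 2.3.3 and matplotlib 3.10.9 made tables and figures.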

Additional observations from a re-analysis of the deposited data

Results flagged for a closer look

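These events had a CPT effect that differed between late and early arrays, by the limma contrast of CPT late minus CPT early with Benjamini-Hochberg adjustment over all events. All were named for CPT late against DMSO, and the values are score differences, late minus early, on the log2 scale. The 2 contrasts share the late arrays, so passing this one is no independent support. Of all events 9.09% were higher and 1.49% lower in it. Higher in CPT late were CCDC77 (5.60), NOP56 (2.99), SLC38A2 (6.73), EIF2S2 (7.004), CNOT2 (6.52), LYAR (6.17) and TPR (6.32). The score was also higher in IWS1 (7.11), PSMD12 (5.002), HYPK (5.51), CLK1 (4.62), CLK4 (4.77), SRRM1 (4.03) and SRPK2 (3.15). Further increases were those of RBM6 (4.79), RBM5 (3.31), RBM8A (4.28), PLRG1 (4.25), RNPS1 (3.55), FAS (4.03) and CFLAR (2.23). Positive differences were found in CHEK1 (3.97), MSH6 (4.45), TOP2A (4.24), RAD50 (4.51), CCNG1 (5.31), POLH (4.40) and CCNB1 (6.38). Values above 0 were also those of KIF11 (4.76), NDC80 (5.40), CENPE (4.46), RPL30 (4.13), RPL9 (1.78), RPS18 (2.32) and RPS3 (2.06). The remaining increases were KRT19 (2.40), LYZ (1.20), COL1A2 (0.99), MDM2 (3.37), TOP1 (2.08) and TDP1 (2.21). Lower in CPT late were UBE2G1 (-6.51), LSM8 (-5.95), EIF2B4 (-5.59), SRP19 (-5.05), ZMYND8 (-4.06) and NGDN (-5.02). The score was also lower in XPO1 (-4.82), ZNF638 (-5.13), GEMIN6 (-5.55), ZNF189 (-3.98), RBM25 (-4.51) and RBM10 (-3.88). Further decreases were those of DIABLO (-4.36), GADD45A (-4.03), CD68 (-1.30) and PDGFRB (-1.83). NOP56 had also passed on the early arrays against DMSO.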

How the results depend on the processing

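No paired analysis was possible because the labels carry no replicate numbers and each CPT group shares only 1 time with DMSO. No named event changed direction under the 15 alternatives run, but medians near 0 did. That of CPT late against DMSO, 0.18, was -0.0017 with each array centred on its median score, a setting that itself removes differences between the arrays' medians. It was 0.17 after quantile re-normalization. That of CPT early against DMSO, -0.0037, was 0.030 when DMSO at 20 h was left out and 0.0042 when CPT at 2 h was. Over the named events, 1271 alternative values kept direction and side of the threshold, 118 lost the call and 6 gained it; the 20 largest changes of CPT late against DMSO were kept in every alternative run, and most losses were among marker genes. With all 3 probe set means above the brightness limit, only 29020 events were tested, so these counts are smaller for that reason too. CPT late against DMSO gave 2868 higher and 384 lower, CPT late against CPT early 3229 and 347, and CPT early against DMSO 3 and 2. Higher scores with E higher numbered 705 and lower scores with E lower 159. In the main fit of CPT late against DMSO, 10.9% of these 29020 events were higher and 1.57% lower, against 7.81% and 1.44% of all events. From E minus C alone, 1223 higher scores had E higher. CPT early against DMSO gave 0 higher events from E minus C, 2 from E minus D and 0 without a trend, and its NOP56 call was lost in all 3 (adjusted p by limma 0.37, 0.067 and 0.80). Leaving out 1 array gave 5501 to 17012 higher and 1145 to 3175 lower events for CPT late against DMSO, 0 to 9 and 0 to 2 for CPT early against DMSO, and 7416 to 20409 and 1200 to 3307 for CPT late against CPT early; higher scores with E higher numbered 323 to 1845 and lower scores with E lower 742 to 1789. The causes were not tested. CFLAR was lost from E minus C alone. Dim probe sets limit what can be seen: 69799 events (30.7%) had no probe set mean above the limit.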
